A study of Homo sapiens with 8 samples.

Results

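The HOX genes of BEAS-2B, an immortalised human bronchial epithelial cell line grown in serum-free LHC-9 medium, were described by cluster. The set holds entries of the deposited count files whose name is HOXA, HOXB, HOXC or HOXD followed by a number from 1 to 13 and nothing else, without antisense or duplicated entries. These are 38 of the 50006 listed genes: 10 HOXA genes on chromosome 7 (GRCh38.p14, 27100354 to 27200091), 10 HOXB genes on chromosome 17 (48528526 to 48728750), 9 HOXC genes on chromosome 12 (53938831 to 54056030) and 9 HOXD genes on chromosome 2 (176087487 to 176190907). RNA was sequenced from wild-type cells after 4 h with buffer (PBS, here Mock), with fibrinogen (FBG), with a preparation labelled as FCPs that are Der m 1-derived (M1-FCP in the titles, here FCP; the labels neither expand the abbreviation nor say how it was made, and Der m 1 is a mite allergen) or with the αC domain of fibrinogen (here αC), each protein at 4 ng/µl. Each group has 2 libraries that the labels number as biological replicates, and nothing says whether they came from separate cultures, so the p-values measure the spread between these libraries. Total counts ran from 15137196 to 16561302 in Mock and FBG and from 21680688 to 22258791 in FCP and αC, so 3 counts, taken as the floor, are worth 0.127 to 0.202 CPM (counts scaled to a library of 1000000) per library.

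HOX proteins are homeodomain transcription factors that give cells a position along the body axis. Their genes lie in clusters, and the order in a cluster follows the body axis: low-numbered genes act toward the head and high-numbered genes toward the tail and the ends of the limbs. Genes with the same number in different clusters are paralogs that bind similar DNA, usually beside PBX and MEIS partners. Polycomb proteins keep the clusters silent and trithorax proteins keep them active, and adult cells carry much of the resulting pattern as a memory of where they arose. In the lung, genes of the HOXA and HOXB clusters are the ones best known, with HOXA5 required for the trachea and airways in mice.

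The bases before the start of 4 HOX genes are shown because 3 of these genes rose from near 0 counts and the fourth had 0 counts in all 8 libraries, and because none of the 4 windows overlaps an annotated exon. Each is the 250 bases upstream of the RefSeq start, 5′ to 3′ on the gene's strand, with each CpG in capitals.
HOXA2 (chr7:27102684-27102933, minus strand): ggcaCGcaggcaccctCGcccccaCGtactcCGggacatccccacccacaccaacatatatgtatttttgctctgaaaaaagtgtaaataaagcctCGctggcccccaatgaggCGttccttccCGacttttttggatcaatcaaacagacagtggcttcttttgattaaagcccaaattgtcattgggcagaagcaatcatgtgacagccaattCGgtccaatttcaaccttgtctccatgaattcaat
HOXD10 (chr2:176116528-176116777, plus strand): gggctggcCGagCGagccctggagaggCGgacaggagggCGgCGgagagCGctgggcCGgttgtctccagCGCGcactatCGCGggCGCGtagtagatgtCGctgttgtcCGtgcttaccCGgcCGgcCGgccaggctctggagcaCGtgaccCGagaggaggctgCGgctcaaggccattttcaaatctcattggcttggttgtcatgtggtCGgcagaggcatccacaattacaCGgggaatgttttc
HOXD11 (chr2:176107030-176107279, plus strand): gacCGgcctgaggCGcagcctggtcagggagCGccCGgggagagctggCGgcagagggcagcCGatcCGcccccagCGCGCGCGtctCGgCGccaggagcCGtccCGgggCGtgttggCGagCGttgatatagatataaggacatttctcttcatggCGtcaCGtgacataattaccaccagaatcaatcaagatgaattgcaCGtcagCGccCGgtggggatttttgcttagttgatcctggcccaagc
HOXD4 (chr2:176151300-176151549, plus strand): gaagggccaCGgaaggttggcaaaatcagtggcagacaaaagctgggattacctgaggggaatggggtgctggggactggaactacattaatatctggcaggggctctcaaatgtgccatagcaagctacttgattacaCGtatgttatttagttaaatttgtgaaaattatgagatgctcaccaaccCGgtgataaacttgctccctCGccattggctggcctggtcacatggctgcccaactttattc
HOXD10 and HOXD11 hold 23 CpG each, HOXA2 holds 8 and HOXD4 holds 4. RefSeq (GRCh38.p14) gave such a window for 20 of the 38 HOX genes, with a median of 20.5 CpG and 59% GC, beside 11 CpG and 58% GC over 34786 windows of all genes. The letters TGATNNAT, a form of the site that HOX and PBX proteins bind together, occurred on either strand in 3 of the 20 HOX windows (HOXA2, HOXB1 and HOXD11), beside 6.49% of all windows. The homeodomain core TAATTA occurred in 2 (HOXD3 and HOXD11), beside 4.37%. The DR5 element of retinoic acid receptors, a direct repeat of AGGTCA, occurred in 0 of the 20, beside 0.00287%. A match is a description of the letters and says nothing of binding here.

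All libraries are labelled as epithelial cells, and the markers of that type differed between the groups before any HOX gene is considered. The keratins KRT8, KRT18 and KRT17 were high in each library (at least 5140 counts), while in Mock GRHL2 and OVOL1, which hold epithelial identity, were at 0 counts in both libraries, TP63, the basal cell factor, had 1 and 1, and CDH1 (E-cadherin) had 75 and 60. In FCP the same genes had 471 and 519, 16 and 8, 1811 and 1820, and 5715 and 5729 counts, and 12 of 12 epithelial markers rose against Mock. In FBG against Mock 5 of the 12 rose and 3 fell (median log2 fold change 1.17, beside 0.02 over all tested genes). Over all tested genes 37.3% rose and 36.1% fell in FCP against Mock, and 24.2% and 26.3% in FBG against Mock. The 12 markers summed to 1305 to 1309 CPM for Mock, 1151 to 1172 for FBG, 4421 to 4481 for FCP and 4434 to 4518 for αC. The 12 fibroblast or mesenchymal markers summed to 2410 to 2443, 1246 to 1255, 248 and 258 to 259 CPM in that order, with 8 of 10 tested falling and 1 rising in FCP against Mock; COL3A1 was at 0 in every library, and PRRX1 went from 12 and 9 counts in Mock to 0 and 0 in FCP. Of 8 airway lineage markers 3 were tested, of which 1 rose and 2 fell in FCP against Mock. FOXA2 rose (edgeR adjusted p = 1.07e-07) and FOXA1 fell by 0.39 ± 0.135 (log2, SE). NKX2-1, the lung identity factor, had 151 and 160 counts in Mock, 174 and 157 with FBG, 1 and 1 with FCP and 6 and 6 with αC. Of 5 endothelial markers 3 were tested and rose, from sums of 0.932 to 1.07 CPM in Mock to 2.66 to 3.1 in FCP, and of 5 blood markers 2 were tested, of which 1 fell. These differences run along the division of the HOX pattern described next, though FBG also differed from Mock in the epithelial and fibroblast lists. The part of these differences in the HOX pattern was not tested. The labels do not say whether the 4 groups were grown from the same stock of cells, and in the comparisons of FCP or αC with Mock or FBG a difference of stock and the 4 h treatment cannot be told apart. In bulk RNA, fewer cells of a type and less RNA per cell cannot be told apart.

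The cells labelled Mock had a HOX pattern carried by the HOXB cluster. In those labelled FCP or αC the HOXA sum was the largest, HOXB came next at a lower level than in Mock, and part of HOXD was added. Levels below are CPM scaled by the TMM method (which sets the libraries to a common composition). The summed HOXA level was 2.66 in Mock (SD 0.096, n = 2), 5.32 with FBG (SD 0.00113), 17.6 with FCP (SD 0.0701) and 18.4 with αC (SD 0.388). The summed HOXB level was 27.7 in Mock (SD 0.64), 37 with FBG (SD 1.06), 13.6 with FCP (SD 0.0065) and 14 with αC (SD 0.0903). The HOXD sum went from 0.0999 in Mock (SD 0.047) and 0.438 with FBG (SD 0.238) to 4.58 with FCP (SD 0.615) and 5.81 with αC (SD 0.448). In these 3 clusters no library of FCP or αC lay within the range of the Mock and FBG libraries. HOXC held 2, 3, 2 and 2 counts in all in Mock, FBG, FCP and αC, fewer than 1 count per gene, so its genes were at or below the floor in each group. The sum over the 38 genes moved less, at 30.5 in Mock (SD 0.685), 42.9 with FBG (SD 0.961), 35.8 with FCP (SD 0.6) and 38.3 with αC (SD 0.745).

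**Figure D1:**
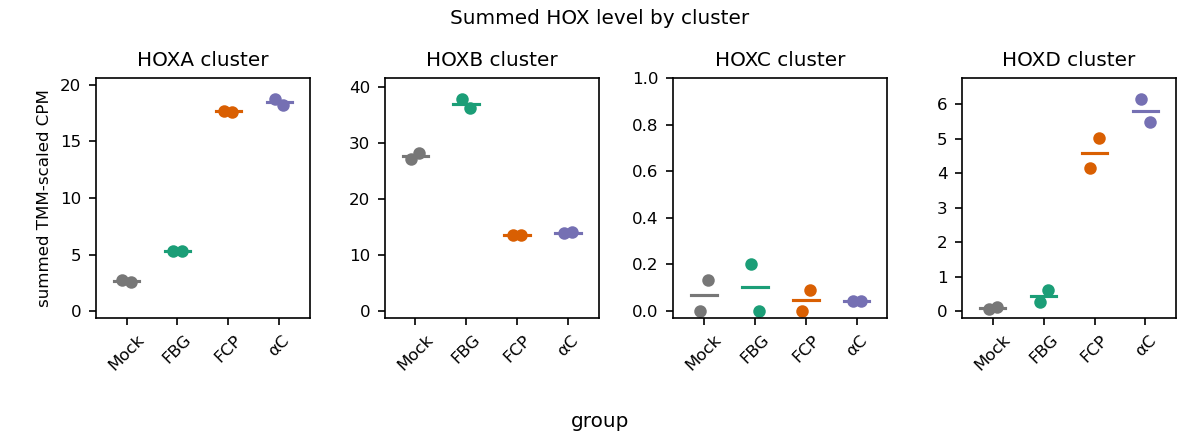
Summed TMM-scaled CPM of the genes of each HOX cluster (vertical axis, a linear scale of its own in each panel) by group. Points are the 2 libraries of a group and lines their mean; HOXA rises from 2.66 in Mock to 17.6 in FCP while HOXB goes from 27.7 to 13.6.

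Per length of annotated exon, HOXB made up 89.3% of the HOX level in Mock (SD 0.954, n = 2), 82.5% with FBG (SD 0.179), 29.6% with FCP (SD 2.35) and 29.1% with αC (SD 0.138). HOXA made up 10.1% in Mock (SD 1.51), 16.3% with FBG (SD 0.139), 57.4% with FCP (SD 0.822) and 56% with αC (SD 0.95). HOXD made up 0.264% in Mock (SD 0.139), 0.784% with FBG (SD 0.512), 12.8% with FCP (SD 2.97) and 14.7% with αC (SD 0.821). By counts alone, HOXB made up 37.4% to 38.3% in the FCP libraries and HOXA 48.5% to 49.9%. The order per kb rests on annotated exon lengths, which are 19884 bases for HOXB3 and 2669 for HOXA11. Without division by length HOXB3 was the highest of the 38 genes in each group. In FCP it had 7.57 CPM beside 6.22 for HOXA11, and in αC 7.52 beside 6.44. The gene with the highest level per kb of exon was HOXB4 in Mock (4.06 CPM per kb, SD 0.985) and FBG (5.09, SD 0.263), and HOXA11 in FCP (2.33, SD 0.126) and αC (2.41, SD 0.213). After HOXB4 the order in Mock was HOXB2 (2.16), HOXB7 (1.44), then HOXA11 (0.636) and HOXB3 (0.606), whose libraries overlapped. In FBG the same 5 genes led, in the same order, and HOXA11 (1.1) lay above HOXB3 (0.889) in both libraries. In FCP, HOXA11 was followed by HOXB4 (1.32) and HOXB2 (1.31), which did not separate, and then by HOXA3 (1.09). In αC, HOXA11 was followed by HOXB2 (1.42) and HOXB4 (1.32), again overlapping, and by HOXA3 (1.15). The highest HOX gene per length lay near the middle of the tested genes: 45.8% of the 16307 tested genes lay above HOXB4 in Mock and 57% above HOXA11 in FCP. The other HOX genes of each group lay lower.

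**Figure D2:**
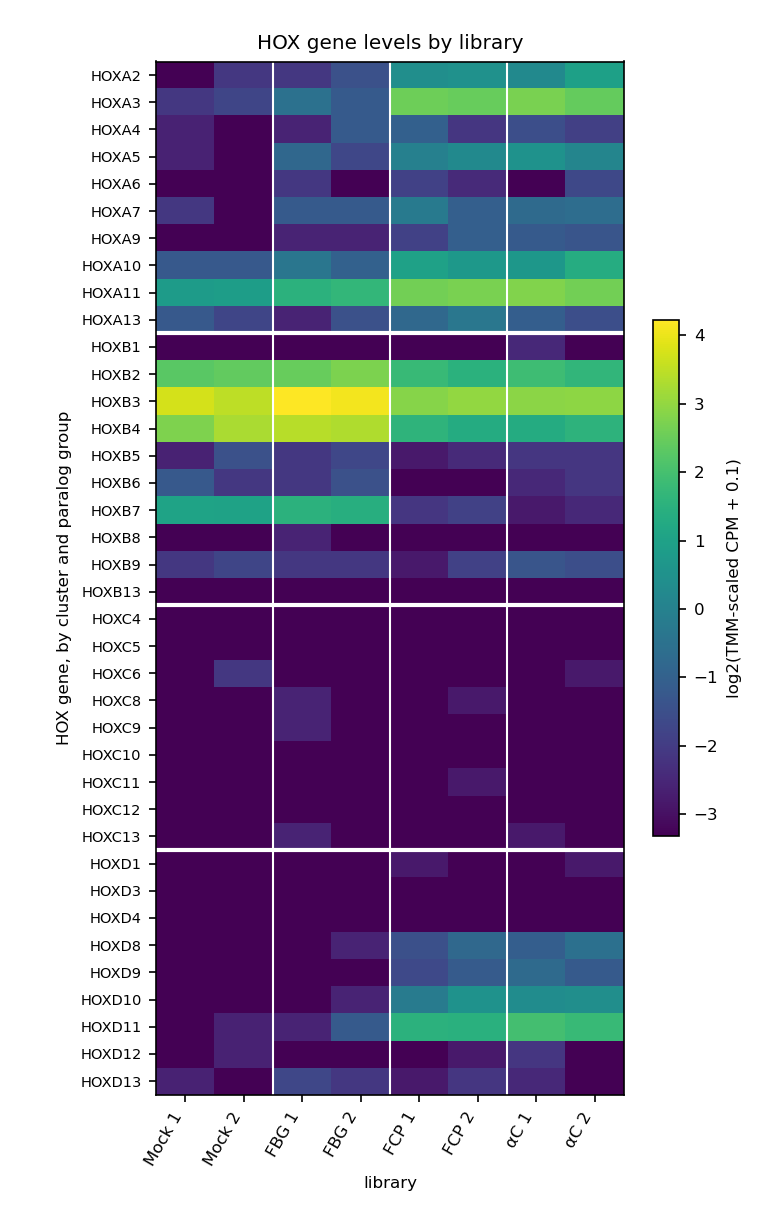
Level of the 38 HOX genes (rows, by cluster and number) in the 8 libraries (columns), as log2 of TMM-scaled CPM plus 0.1, from dark at 0 counts to yellow. HOXB2, HOXB3, HOXB4 and HOXB7 stand out in Mock and FBG. In FCP and αC HOXA2, HOXA3, HOXA10, HOXA11, HOXD10 and HOXD11 stand out beside HOXB2, HOXB3 and HOXB4. The HOXC block is dark throughout.

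Of the 38 genes, 12 had enough counts to be tested: HOXA2, HOXA3, HOXA5, HOXA7, HOXA10, HOXA11, HOXB2, HOXB3, HOXB4, HOXB7, HOXD10 and HOXD11. The filter asked for at least 0.523 CPM in 2 or more libraries, and 7 of the 12 (HOXA2, HOXA3, HOXA5, HOXA7, HOXA10, HOXD10 and HOXD11) passed it through FCP or αC alone, so they had to differ and their count is no support for a shift of the set. HOXB7 passed through Mock and FBG alone, which favours a fall in the same way. The other 26 are given by their counts. Differences are log2 fold changes from edgeR's quasi-likelihood test with their standard errors, and a gene was called where its Benjamini-Hochberg adjusted p over all tested genes was under 0.05.

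In FCP against Mock, the comparison of the Der m 1-derived preparation with buffer, the 6 tested HOXA genes and both tested HOXD genes rose and the 4 tested HOXB genes fell. Of all tested genes 73.4% were called in that comparison (37.3% risen and 36.1% fallen), so a call by itself does not set a HOX gene apart. In αC against Mock the counts were the same, 8 risen and 4 fallen, with 74.7% of all tested genes called (38% risen and 36.7% fallen). These comparisons share the Mock libraries, and their values are given side by side.

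HOXA2, which specifies the skeleton of the middle ear and face, had 0 and 2 counts in Mock, 2 and 4 with FBG, 28 and 30 with FCP and 26 and 44 with αC. With 2 Mock counts in all, the ratio of summed scaled counts was 19 in FCP against Mock (95% counting interval 5.03 to 161; adjusted p = 7.64e-06 in edgeR) and 22.2 in αC against Mock (5.92 to 187; 2.72e-06). HOXA3, which is needed for the thymus and parathyroid glands, had 2 and 3 counts in Mock, 9 and 5 with FBG, 132 and 126 with FCP and 153 and 127 with αC. HOXA3 rose by 5.03 ± 0.327 (log2, SE, n = 2 against 2) in FCP (edgeR adjusted p = 3.27e-12) and by 5.1 ± 0.326 in αC against Mock. These genes lie toward the head end of HOXA, and with HOXA4 their summed level went from 0.266 CPM in Mock (SD 0.094) to 7.15 in FCP (SD 0.312) and 7.6 in αC (SD 0.298). HOXA4 itself was not tested, at 1 and 0 counts in Mock, 1 and 5 with FBG, 9 and 3 with FCP and 6 and 4 with αC.

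HOXA5, the airway gene of the family, had 1 and 0 counts in Mock, 7 and 3 with FBG, 20 and 25 with FCP and 32 and 23 with αC. Its ratio was 29.5 in FCP against Mock (counting interval 5.03 to 1190; edgeR adjusted p = 1.3e-05) and 34.9 in αC against Mock (6.01 to 1403; 4.52e-06). HOXA7 had 2 and 0 counts in Mock, 5 and 5 with FBG, 17 and 9 with FCP and 12 and 13 with αC, with a ratio of 8.52 with FCP (2.13 to 74; adjusted p = 0.00353 in edgeR) and 7.93 with αC (1.98 to 69.1; 0.00482). Without the second Mock library its adjusted p was 0.0502 in FCP and 0.0628 in αC. As 74.8% of the HOXA7 exons lie under exons of the antisense gene HOXA-AS3 and the counting used no strand, its value is uncertain. The middle of the cluster, HOXA5 to HOXA7, summed to 0.0999 CPM in Mock (SD 0.141) and 1.68 in FCP (SD 0.155), where HOXA6 gave 4 and 2 counts.

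At the tail end, HOXA10, which acts in the uterus and in limb patterning, had 5 and 5 counts in Mock, 10 and 6 with FBG, 43 and 35 with FCP and 35 and 58 with αC. It rose by 2.33 ± 0.409 in FCP (edgeR adjusted p = 2.45e-05) and by 2.54 ± 0.404 in αC. HOXA11, which shapes the forearm and lower leg, had the most counts of these HOXA genes in Mock, 25 and 26, then 41 and 46 with FBG, 137 and 148 with FCP and 162 and 143 with αC. It rose by 1.87 ± 0.194 in FCP (edgeR adjusted p = 1.11e-08) and by 1.92 ± 0.194 in αC, the smallest of these 6 HOXA changes. HOXA9 (0 and 0 counts in Mock, 1 and 1 with FBG, 4 and 9 with FCP, 8 and 7 with αC) and HOXA13 (5 and 3, 1 and 4, 11 and 16, 9 and 6) were not tested. HOXA9 was at least 2.84-fold higher in FCP and at least 3.17-fold higher in αC, against a floor of 3 counts over the Mock group, and 72.4% of its exons are shared with the read-through gene HOXA10-HOXA9.

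**Figure D3:**
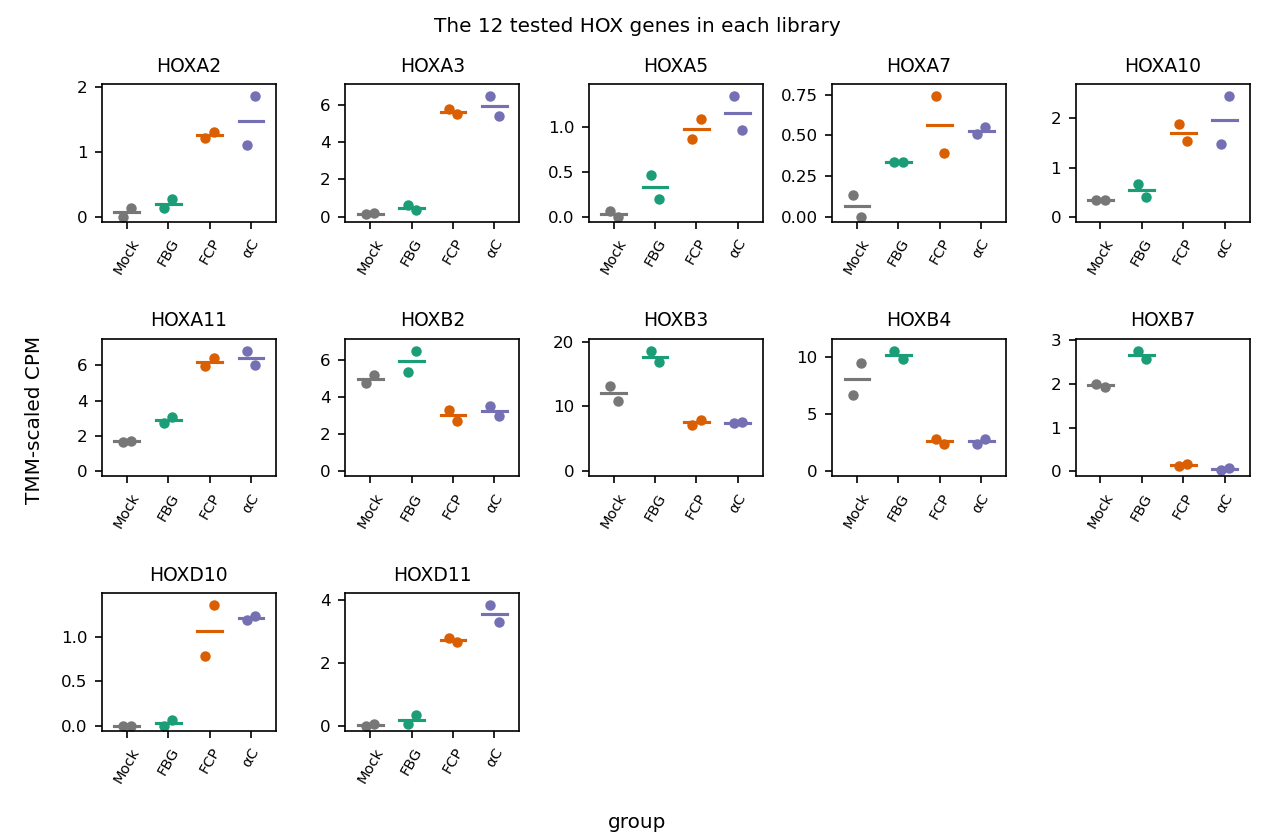
TMM-scaled CPM (vertical axes, linear and different in each panel) of the 12 tested HOX genes in each library by group; points are the 2 libraries and lines their mean. The HOXA and HOXD genes sit highest with FCP and αC, and the HOXB genes highest with FBG and lowest with FCP and αC.

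The HOXB genes went the other way. HOXB2, HOXB3 and HOXB4 act in the hindbrain and neck, and HOXB4 also in blood stem cells. HOXB2 had 72 and 78 counts in Mock, 80 and 97 with FBG, 76 and 63 with FCP and 84 and 71 with αC, from libraries of unequal depth. As CPM these are 4.8 and 5.19 in Mock, 5.39 and 6.53 with FBG, 3.32 and 2.75 with FCP and 3.55 and 3 with αC, so FCP and αC lay below Mock in both libraries. HOXB2 fell by 0.72 ± 0.199 in FCP (edgeR adjusted p = 0.00269) and by 0.61 ± 0.198 in αC (0.00863). The call was lost once trends with GC content and length were removed (-0.28 in FCP, adjusted p = 0.199, and -0.2 in αC, 0.349). In αC it was also lost with library size alone as scaling, without the second αC library and in DESeq2.
HOXB3 had 198 and 164 counts in Mock, 276 and 249 with FBG, 164 and 183 with FCP and 175 and 181 with αC. It fell by 0.67 ± 0.12 in FCP (edgeR adjusted p = 3.07e-05) and by 0.68 ± 0.12 in αC against Mock. HOXB4 had 101 and 143 counts in Mock, 157 and 146 with FBG, 66 and 55 with FCP and 57 and 68 with αC. HOXB4 fell by 1.62 ± 0.189 in FCP (edgeR adjusted p = 7.38e-08) and by 1.62 ± 0.189 in αC, a larger drop than that of HOXB3 or HOXB2, though the difference between the genes was not tested.

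HOXB7, of the middle of the cluster, changed most among the HOXB genes. It had 30 and 29 counts in Mock, 41 and 38 with FBG, 3 and 4 with FCP and 1 and 2 with αC. HOXB7 fell by 3.63 ± 0.412 in FCP against Mock (edgeR adjusted p = 4.83e-08), with a ratio of 0.0777 (counting interval 0.0299 to 0.17). In αC, with 3 counts in all, its ratio to Mock was 0.0323 (counting interval 0.00647 to 0.099; edgeR adjusted p = 4.31e-09). HOXB6 had 5 and 2 counts in Mock, 2 and 4 with FBG, 0 and 0 with FCP and 2 and 3 with αC. Its ratio in FCP against Mock was 0, with a counting interval that reached 0.454. HOXB5 (1 to 4 counts per library) and HOXB9 (1 to 7) stayed near the floor, HOXB1 and HOXB8 had 2 counts and 1 count over the 8 libraries, and HOXB13, a prostate and tail-end gene, had 0 in all.

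In HOXD the genes that rose lay side by side. HOXD11, which acts with HOXA11 in the limb, had 0 and 1 counts in Mock, 1 and 5 with FBG, 64 and 61 with FCP and 91 and 78 with αC. Its ratio to Mock was 81.9 in FCP (counting interval 14.4 to 3260; edgeR adjusted p = 8.08e-09) and 107 in αC (19 to 4260; 2.02e-09). HOXD10, which acts in the spinal cord and limb, had 0 and 0 counts in Mock, 0 and 1 with FBG, 18 and 31 with FCP and 28 and 29 with αC. Against a floor of 3 counts over the Mock group, this is 10.7-fold higher in FCP (edgeR adjusted p = 2.78e-06) and 12.1-fold higher in αC (1.43e-06). The lower ends of the counting intervals were 8.38 and 9.49. Neighbouring HOXD9 (0 and 0 counts in Mock and with FBG, 5 and 8 with FCP, 12 and 8 with αC) and HOXD8 (0 and 0 in Mock, 0 and 1 with FBG, 6 and 11 with FCP, 9 and 14 with αC) were not tested. Against the same floor HOXD9 was 2.84-fold and HOXD8 3.71-fold higher in FCP, and 4.23-fold and 4.86-fold higher in αC. The lower ends of their counting intervals were 2 and 2.7 in FCP, and 3.13 and 3.65 in αC. As 31.5% of the HOXD8 exon bases are shared with LOC100129455, its value is uncertain. On either side the cluster was near 0: HOXD3 and HOXD4 had 0 counts in all 8 libraries, HOXD1 had at most 1 per library, and HOXD12 and HOXD13 at most 3. The CpG-poor HOXD4 window and the CpG-rich HOXD10 and HOXD11 windows printed above belong to these genes; CpG number did not divide the genes throughout, as HOXD3, also at 0 counts, has 21 CpG and HOXA2, which rose, has 8.

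**Figure D4:**
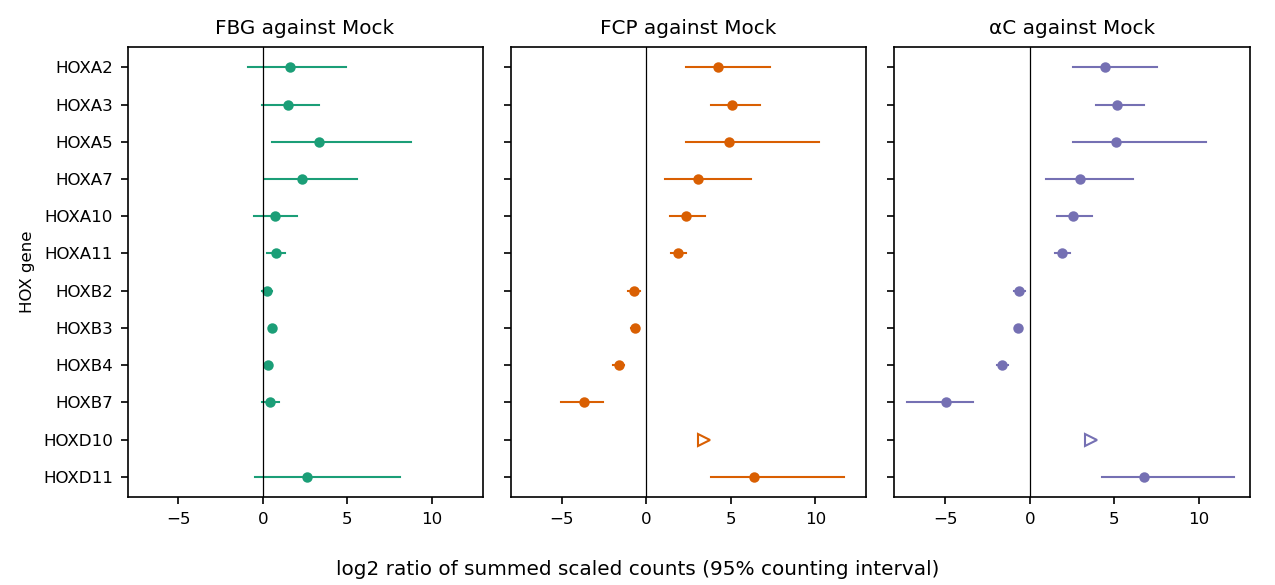
Log2 ratio of summed TMM-scaled counts against Mock for the 12 tested HOX genes in FBG, FCP and αC; bars are 95% counting intervals, open triangles are lower bounds where Mock had 0 counts, and HOXD10 in FBG (1 count) has no value. HOXA and HOXD genes lie right of 0 and HOXB genes left of it in FCP and αC, with HOXB7 farthest left.

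FBG against Mock, which compares whole fibrinogen with buffer, gave risen genes in both HOXA and HOXB. HOXA5, HOXA11 and HOXB3 rose and no tested HOX gene fell; 50.4% of all tested genes were called (24.2% risen and 26.3% fallen). HOXB3 rose by 0.55 ± 0.118 (n = 2 against 2; edgeR adjusted p = 0.000423) and HOXA11 by 0.78 ± 0.202 (0.00438). HOXA5, from 1 to 10 counts in all, had a ratio of 10.1 (counting interval 1.44 to 439; edgeR adjusted p = 0.0107). Of these, HOXB3 kept its call under every alternative setting in which it was tested, while HOXA5 and HOXA11 each lost it under at least 1. In 11 of the 12 tested genes both FBG libraries lay above both Mock libraries, as they did for 37.8% of all tested genes. HOXB4 (0.33 ± 0.18, edgeR adjusted p = 0.139), HOXB7 (0.44 ± 0.301, 0.245) and HOXB2 (0.25 ± 0.197, 0.302) were among those 11 and were not called.
Without the first FBG library the HOXA5 difference was 2.39 (edgeR adjusted p = 0.165). Without the second Mock library HOXA5 had 2.23 (0.115) and without the second FBG library HOXA11 had 0.7 (0.0538). The edgeR standard error was smaller than the counting error for 7 of the 12 genes here, and for 8 of 12 in FCP and in αC against Mock. The errors of the low HOXA and HOXD genes, and of HOXB7 in FCP and αC, are thus too small, as are their p-values.

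Set against FBG, FCP and αC again had higher HOXA and HOXD and lower HOXB. In both comparisons 7 of the 12 genes rose and 4 fell, with 66.8% of all tested genes called in FCP against FBG (32.6% risen and 34.2% fallen) and 68.3% in αC against FBG (33.8% and 34.5%). HOXA7 was the gene not called, at 0.74 ± 0.613 (edgeR adjusted p = 0.296) and 0.64 ± 0.617 (0.367). The HOXB differences were larger against FBG than against Mock, and FBG lay above Mock: HOXB3 fell by 1.22 ± 0.119 in FCP and by 1.23 ± 0.119 in αC against FBG, HOXB4 by 1.95 ± 0.189 in both, and HOXB7 by 4.07 ± 0.402 in FCP. HOXA3 rose by 3.56 ± 0.279 in FCP and by 3.63 ± 0.278 in αC against FBG (edgeR adjusted p = 1.37e-10 and 8.78e-11). HOXD11 rose by 3.71 ± 0.44 and 4.1 ± 0.434. In each of the 2 comparisons with FBG the edgeR standard error was smaller than the counting error for 7 of the 12 genes. HOXA3, HOXB7 and HOXD11 are among them, so their errors and p-values are too small here as well. HOXA5 rose by 1.53 ± 0.498 in FCP against FBG (edgeR adjusted p = 0.0101), a call lost without the second FBG library (1.04, 0.126), without the second FCP library (1.36, 0.0813) and in DESeq2. In αC against FBG it was lost without the second FBG library (1.28, 0.0563) and in DESeq2.

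Between αC and FCP, which asks whether the αC domain and the Der m 1-derived preparation differ, no HOX gene was called: 0 of 12 in edgeR, 0 at an unadjusted p under 0.05 and 0 in DESeq2, with 9.01% of all tested genes called. HOXD11 lay higher in αC by 0.39 ± 0.3 (edgeR adjusted p = 0.546), with a ratio of 1.31 (counting interval 1.03 to 1.66) and both αC libraries above both FCP libraries. HOXB7 lay lower in both αC libraries, at 3 against 7 counts; the 2 groups did not overlap for these 2 genes, beside 52.8% of all tested genes. For the better-counted genes the counting interval of the ratio was 0.884 to 1.25 for HOXA3, 0.879 to 1.22 for HOXA11, 0.855 to 1.16 for HOXB3 and 0.773 to 1.3 for HOXB4. Such intervals leave out the spread between libraries, and the edgeR standard errors of these genes were larger than the counting errors. On the log2 scale they were 0.213 beside 0.125 for HOXA3 and 0.173 beside 0.119 for HOXA11. For HOXA5 (0.784 to 1.8), HOXA7 (0.516 to 1.68) and HOXD10 (0.756 to 1.69) a difference of up to about these sizes was not detectable at this depth. HOXB9, which was not tested, had 1 and 4 counts in FCP and 7 and 6 in αC, a ratio of 2.52 (0.842 to 9.02).

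The non-coding genes of the clusters were followed in the same way. Of 26 in the files, 4 were tested, and the 4 rose in FCP and in αC against Mock, beside 37.3% and 38% of all tested genes. HOXA10-AS, HOXA11-AS and HAGLR would not have passed the filter on the Mock and FBG libraries alone, so they had to rise and this count is no support. HOTAIRM1, transcribed beside HOXA2, had 18 and 10 counts in Mock, 23 and 22 with FBG, 127 and 139 with FCP and 129 and 119 with αC. It rose by 2.63 ± 0.252 in FCP (edgeR adjusted p = 2.9e-09) and by 2.48 ± 0.252 in αC, and FBG lay above Mock without a call (0.7 ± 0.273, 0.0761). HOXA10-AS had 1 and 0 counts in Mock, 2 and 2 with FBG, 18 and 29 with FCP and 33 and 22 with αC. HOXA11-AS had 4 and 2, 1 and 8, 16 and 15, and 18 and 18 counts in the same order, and HAGLR, in the HOXD cluster, had 0 in the Mock and FBG libraries, 7 and 5 in FCP and 14 and 12 in αC. Without strand, reads of HOXA10-AS and HOXA11-AS cannot be told apart from those of HOXA10 and HOXA11 where they overlap. The 7 microRNA entries, HOTAIR and HOTTIP had 0 to 2 counts per group.

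Genes next to HOXA and HOXD changed in both directions, and most of those next to HOXB fell as the HOXB genes did. The 5 nearest tested genes on each side were taken for each cluster, reaching 1753 kb at most, and their counts stand beside 37.3% risen and 36.1% fallen over all tested genes in FCP against Mock. Around HOXA 6 of 10 rose and 4 fell in FCP against Mock; on the HOXA2 side, SKAP2, an adaptor protein, rose by 2.31 ± 0.12 and SNX10, a sorting nexin, by 5.1 ± 0.23, while HIBADH, a valine-degrading enzyme on the HOXA13 side, fell by 1.04 ± 0.055 (edgeR adjusted p = 7.53e-14). Around HOXB 0 of 10 rose and 8 fell, from -0.12 for NFE2L1 to -1.59 for COPZ2. The median over the 849 other tested genes of chromosome 17 was -0.2, which is -0.25 relative to all autosomes, so the HOXB drops lie on a chromosome that was lower as a whole. HOXB2 (-0.72) and HOXB3 (-0.67) lay within the range of the 10 flanking genes. HOXB4 (-1.62 ± 0.189) lay at its lower end, beside COPZ2, and HOXB7 (-3.63) beyond it. Around HOXC 1 rose and 6 fell. Around HOXD 3 rose and 1 fell: LNPK, an endoplasmic reticulum protein beside HOXD13, rose by 0.63 ± 0.0635, and MTX2, a mitochondrial protein beside HOXD1, was at -0.05 ± 0.0673. Chromosomes 7, 2 and 12 were at -0.02, 0.06 and -0.08 relative to all autosomes.

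**Figure D5:**
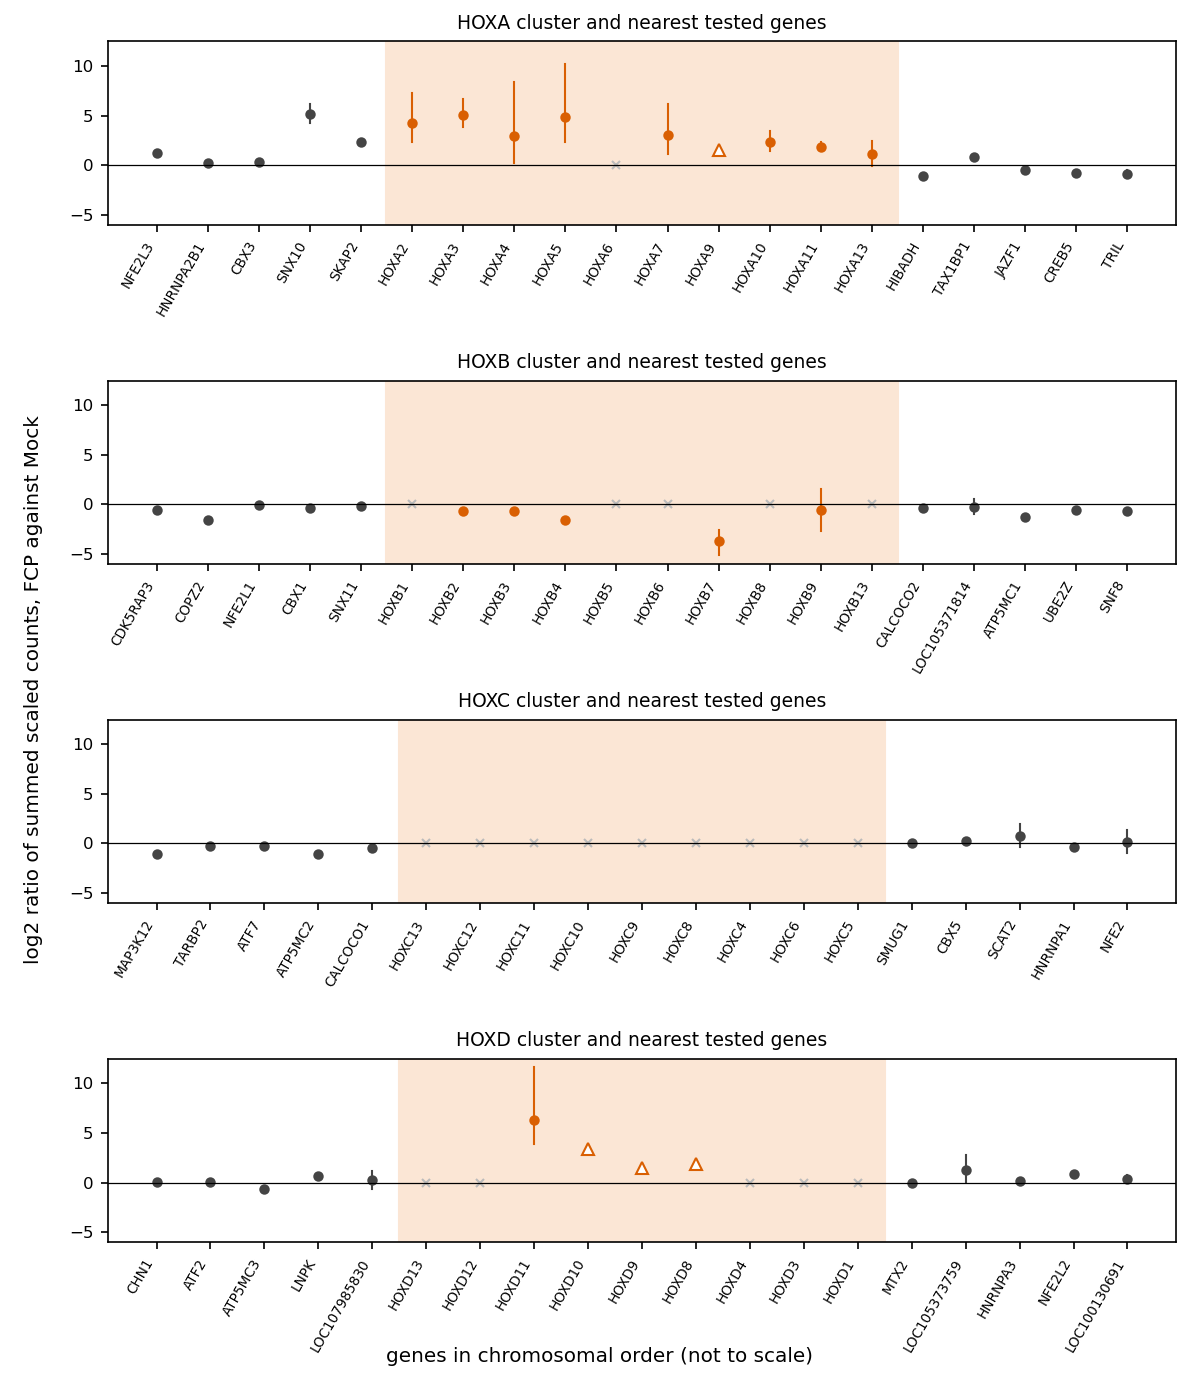
Log2 ratio of summed TMM-scaled counts in FCP against Mock for the HOX genes of each cluster (shaded, orange) and the 5 nearest tested genes on each side (grey), in chromosomal order and not to scale; bars are 95% counting intervals, open triangles lower bounds where Mock had 0 counts, and crosses on the 0 line genes with fewer than 10 counts over both groups, for which no ratio is drawn. HOXA and part of HOXD lie above 0 with flanking genes on both sides of it, and HOXB and most of its neighbours lie below 0.

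The partners of HOX proteins changed in both directions. Of the PBX, MEIS and PKNOX cofactors reported here 7 were tested. In FCP against Mock 1 rose and 2 fell, beside 37.3% and 36.1% over all tested genes, with a median of -0.01 beside 0.06. PBX3 rose by 0.86 ± 0.0813, and MEIS3 and MEIS1 fell by 1.08 ± 0.0695 (edgeR adjusted p = 2.68e-12) and 0.91 ± 0.0749. PBX4 was at 0.54 ± 0.331 (edgeR adjusted p = 0.145). In FBG against Mock 3 of the 7 rose and 2 fell, beside 24.2% and 26.3% over all tested genes. PBX3 rose by 0.46 ± 0.0834 and MEIS3 fell by 0.29 ± 0.0687.

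Of the Polycomb group, which keeps HOX clusters silent, 26 genes were tested, and 9 rose and 14 fell in FCP against Mock (median -0.25). Over all tested genes 37.3% rose and 36.1% fell, with a median of 0.06. JARID2, a partner of the H3K27 methyltransferase, rose by 1.49 ± 0.0408 and PHC3 by 1.11 ± 0.0374, while CBX6 fell by 1.6 ± 0.0281 and PHC2 by 0.97 ± 0.0281. Of the 16 tested trithorax genes and H3K27 demethylases, 10 rose and 4 fell (median 0.29), beside the same shares of all tested genes. KMT2A, the methyltransferase that maintains HOX expression, had 2075 and 2005 counts in Mock, 3004 and 2899 with FBG, 6731 and 6713 with FCP and 7083 and 7066 with αC, and rose by 1.11 ± 0.0248. BPTF, KMT2C and KMT2D rose by 1.68 ± 0.0338, 1.84 ± 0.0498 and 0.61 ± 0.0206. The 4 that fell were MEN1 (by 0.85 ± 0.0413), DPY30 (0.62 ± 0.0877), RBBP5 (0.58 ± 0.0427) and ASH2L (0.47 ± 0.0419). In FBG against Mock 8 Polycomb genes rose and 5 fell, and 7 trithorax genes rose and 7 fell. Over all tested genes 24.2% rose and 26.3% fell there. BPTF rose by 1.19 ± 0.0359.

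Retinoic acid switches on the head end of HOX clusters in embryos. Of its enzymes and receptors 10 of 18 were tested. In FCP against Mock 4 rose and 5 fell, beside 37.3% risen and 36.1% fallen over all tested genes. ALDH1A3, an enzyme that makes retinoic acid, had 826 and 915 counts in Mock, 466 and 479 with FBG, 5476 and 5584 with FCP and 6817 and 6616 with αC; it fell by 0.87 ± 0.0487 with FBG and rose by 2.06 ± 0.0361 in FCP against Mock. It is also among the genes called in αC against FCP (0.23 ± 0.0292, edgeR adjusted p = 1.06e-05). ALDH1A1, of the same family, had 4 and 1 counts in Mock and 187 and 211 in FCP. RXRA rose by 0.99 ± 0.0352 and RARA fell by 1 ± 0.0469. Among boundary factors and upstream homeobox genes 9 were tested, and 5 rose and 2 fell, beside the same shares of all tested genes. NIPBL, which loads cohesin (1.74 ± 0.0344), and the cohesin genes SMC3 (1.29 ± 0.0323) and STAG2 (1.14 ± 0.0338) rose. MAZ fell by 0.6 ± 0.0235 and CTCF by 0.22 ± 0.0281. The cohesin genes SMC1A (0.03 ± 0.0196) and RAD21 (0.0 ± 0.0226) were not called (edgeR adjusted p = 0.163 and 0.994).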

How the data were processed

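RNA-seq was analysed from 8 libraries in 4 groups of 2. The authors deposited, for each gene, a raw count of fragments over its exons from featureCounts run in paired-end mode without strand, multi-mapping or multi-overlap options (1.6.0 per the file headers, 1.6.2 per the submitters' processing notes). The notes also name Trimmomatic 0.39, HISAT2 2.2.1 and SAMtools 1.9, with no role, and the build GRCh38.p14. Gene lengths are the deposited exon lengths. Reads over exons shared between genes are thus uncertain. The test was the robust quasi-likelihood one of edgeR 4.0.16 in R 4.3.3 after TMM scaling and filterByExpr by group, with 8 libraries in 1 fit of 4 groups (4 residual degrees of freedom, common coefficient of variation 0.102), Benjamini-Hochberg adjustment over 16307 genes, and checked on simulated data. Standard errors are the fold change divided by the root of the F statistic. Where a group had 1 to 3 counts, the ratio of summed scaled counts is given with its exact 95% interval, which covers counting error only. The 2 libraries of a group differed by more than sampling noise (chi-square per gene 1.27 to 1.35), so each counted as 1 sample. HOX genes at 1 CPM or more in a group mean were described by library, the others by counts. Of each other list the genes with the smallest p were named (4 in FCP against Mock, 2 in FBG against Mock and in αC against FCP). Further genes were named in the trithorax and boundary factor lists. Some genes of the set and of the lists are not reported here. Members and lists were chosen with earlier results of these data known. Alternatives were DESeq2 1.42.0, other scalings, no filter, pairwise fits, a replicate block, removal of GC and length trends, TPM, and leaving out each library.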

Additional observations from a re-analysis of the deposited data

How the results depend on the processing

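The number of HOX genes called in FBG against Mock was 3, with 50.4% of all tested genes called. It was 5 with library size alone as scaling (50.3%), 7 with GC and length trends removed (49.7%) and 1 in DESeq2 (41.1%). Why this number moved was not tested. Without each library in turn it ran from 3 to 4. For FCP against Mock the leave-one-out counts ran from 12 to 14, for αC against Mock from 11 to 14, for FCP against FBG from 10 to 14, for αC against FBG from 11 to 13, and for αC against FCP the count was 0 under each setting. These fits tested 13 to 15 HOX genes in place of 12, since the filter then asks for fewer libraries, and DESeq2 tested 31, so the counts are not of the same genes. With the replicate number as a block the counts were 3, 12, 12, 11, 11 and 0, as without it. Equal numbers do not pair the libraries: the correlations of their deviations ran from -0.05 to 0.086. Of the 12 calls in FCP against Mock, and likewise in αC against Mock, 10 held under each setting that tested the gene; HOXA7 and HOXB2 did not. No tested HOX gene changed sign in those comparisons or in those against FBG, 1 did in FBG against Mock, and 9 of 12 did in αC against FCP. Depth limits the HOXC genes, most of HOXD and HOXA4, HOXA6, HOXA9 and HOXA13, where 1 library holds a few counts.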

Other observations

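Other factors of positional identity were divided between risen and fallen genes. Of 42 further homeobox and T-box genes 21 were tested. In FCP against Mock 9 rose and 8 fell, beside 37.3% and 36.1% over all tested genes, with a median of 0.04 beside 0.06. NKX2-5, a heart factor, had 120 and 94 counts in Mock, 140 and 126 with FBG, 4 and 7 with FCP and 6 and 4 with αC, and fell by 4.85 ± 0.29 in FCP against Mock (edgeR adjusted p = 6.95e-13). NKX2-1, whose counts are given with the airway markers, also fell (edgeR adjusted p = 1.29e-16). TBX3, a T-box factor of limb and lung mesenchyme, had 84 and 90 counts in Mock, 121 and 118 with FBG, 494 and 510 with FCP and 538 and 526 with αC, and rose by 1.92 ± 0.0956. PITX1, a hindlimb factor, fell by 0.82 ± 0.045 in FCP and by 0.6 ± 0.0459 in FBG, and IRX1 fell by 0.45 ± 0.0851 in FBG. In αC against FCP 1 of the 21 rose, PITX1 by 0.16 ± 0.0449, where 9.01% of all tested genes were called. NKX2-1 was not called there (edgeR adjusted p = 0.06).

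Of 10 tested genes reported elsewhere as targets of HOX proteins, 5 rose and 4 fell in FCP against Mock. Over all tested genes 37.3% rose and 36.1% fell in that comparison. COL1A1 fell by 3.64 ± 0.0165 and ITGB3 by 1.4 ± 0.0737, while MMP14 rose by 1.12 ± 0.0257 and PLAU, the urokinase plasminogen activator, by 1.9 ± 0.0476 (edgeR adjusted p = 7.23e-20). In FBG against Mock 3 rose and 5 fell, beside 24.2% and 26.3% over all tested genes. COL1A1 fell by 0.99 ± 0.0138 there and ITGB3 rose by 1.47 ± 0.0683. In αC against FCP 3 rose and 0 fell, where 9.01% of all tested genes were called. PLAU (0.32 ± 0.0403) and FGF2 (0.36 ± 0.0513) were among those that rose.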
